A study of Mus musculus with 2 samples.

Results

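Autophagy is the route by which a cell encloses its own material in a double membrane, the autophagosome, and delivers it to the lysosome for breakdown. The 40 genes described here were chosen by symbol and not by a cutoff on their values, but with earlier results of these data known. They cover the steps of that route from the initiating kinases to the lysosome, and include the transcription factors of the TFEB type. Of the 40 genes, 38 were paired with a probe set on the arrays, among 22206 gene probe sets in all. Optn, which encodes the cargo receptor optineurin, and Ctsd, which encodes the protease cathepsin D, had no probe set named in the annotation used and were not analysed here.

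The cells were F2, a mouse vascular endothelial line derived from a tumour induced by UV irradiation in mice of mixed BALB/c and C57BL/6 background. They were transfected with hBACCS2, a fusion of a plant blue light sensor with STIM1 that opens the Ca2+ channel ORAI1 when lit. RNA was taken from 1 culture lit at 470 nm for 2 min in turn with 18 min of darkness over 4 h, and from 1 culture without blue light. The sample labels give both cultures as transfected, but the series text describes the negative control as lacking hBACCS2, and the treatment note of both samples speaks of irradiation; the sample labels are followed here. hBACCS2 was expressed from the ubiquitous CAG promoter and only part of the cells took it up, so each value averages cells with and without it. In such a bulk sample, a change in fewer cells and a smaller change in every cell cannot be told apart.

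The arrays were of the Clariom S type for mouse, 1 per condition, so no difference has a replicate and no test between the conditions was possible. Values are signals in arbitrary units, back-transformed from the deposited log2 values, and every difference is the log2 signal with blue light minus that without it. Where both arrays gave a signal over 24, a gene was called higher if its ratio exceeded 2 and lower if it was below 0.5. That minimum is close to the median of the 5222 negative control probes, 26.2 without and 26.5 with blue light. Their 95th percentile was 333.4 and 324.3, so a signal over 24 does not by itself set a gene above the negative controls. As a view of the spread at like signal, each difference was also placed among those of the 500 gene probe sets nearest in mean signal. This percentile describes these 2 arrays only, and that spread may itself hold true differences.

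Of the labelled cell type's markers, 10 of 11 measured endothelial genes were over 24 on both arrays, among them Cdh5, Pecam1 and Kdr, and none passed the fold cutoff. The median difference of the 10 was -0.08, with 5 above 0. The highest was Vwf at 0.57, with a signal of 27.8 near the minimum without blue light. Kdr and Erg were the 2 lowest. Kdr, which encodes a receptor for VEGF, had a difference of -0.65 at percentile 2.4 of its neighbours in signal, below their central 95%. Erg, an endothelial transcription factor gene, had -0.51 at percentile 11.0. The part of these differences in the results was not tested. Cldn5 was the measured gene under the minimum, at 4.5 and 5.0. Macrophages, which are rich in lysosomes, were represented by 2 of 8 markers over that minimum. These were Cd14 (68.6 and 71.6) and Lyz2 (58.4 and 50.9), with Ptprc, Csf1r and Adgre1 among those under it. Of the melanocyte markers, which matter for the factor gene Mitf, 0 of 6 were over the minimum. Epithelial markers were over it for 1 of 6 genes, and those of fibroblasts and mural cells for 3 of 7.

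Autophagosome formation starts with the ULK1 kinase complex, which responds to the nutrient sensor mTORC1 and the energy sensor AMPK. A lipid kinase complex then marks the membrane with phosphatidylinositol 3-phosphate, and small ubiquitin-like proteins of the ATG8 family are joined to the growing membrane, where they hold cargo receptors such as p62. TFEB, TFE3 and MITF are transcription factors that, when released from mTORC1 control, enter the nucleus and turn on genes of autophagy and of the lysosome. Ca2+ is known to act on this scheme. The lysosomal channel MCOLN1 releases Ca2+ that activates calcineurin, which dephosphorylates TFEB, and the Ca2+-dependent kinase CAMKK2 activates AMPK.

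As a group the genes moved little after 4 h of blue light. Of 36 genes over 24 on both arrays, 0 were called higher and 1, Atg2a, was called lower. Across all 11695 gene probe sets over that minimum, 112 or 0.958% were called higher and 160 or 1.37% lower, so the count of the autophagy and lysosome genes is near the background. Their median log2 difference was 0.04, with quartiles of -0.14 and 0.22, beside a median of -0.01 and quartiles of -0.28 and 0.25 over all probe sets. The median changed sign under median scaling, at -0.002. Differences under 0.25 in size were found for 24 of the 36 genes (66.7%) and for 47.3% of all probe sets over the minimum. Over 100 on both arrays the share was 76.0% of 25 genes and 50.1% of all probe sets, and among the 11 dimmer genes it was 45.5%.

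**Figure D1:**
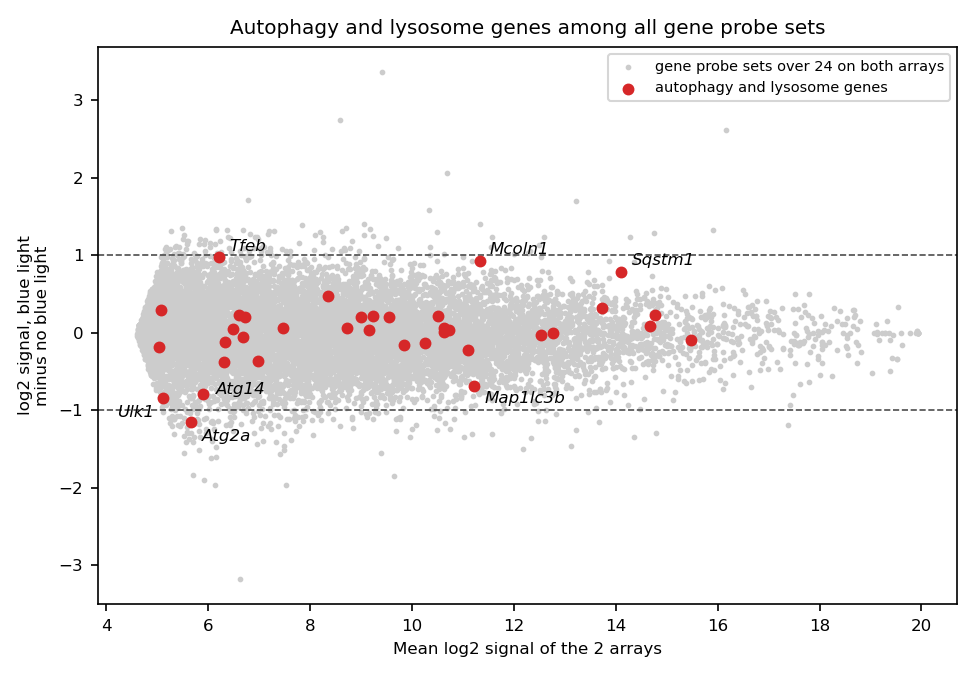
Difference in log2 signal, blue light minus no blue light (vertical axis), against mean log2 signal of the 2 arrays (horizontal axis) for all 11695 gene probe sets over 24 on both arrays (grey) and the 36 autophagy and lysosome genes among them (red). Dashed lines mark ratios of 2 and 0.5; 24 of the 36 red points lie within 0.25 of 0, and only Atg2a lies past a line.

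A few genes stood at the edges of the spread. Tfeb, Mcoln1 and Sqstm1 lay above the central 95% of their neighbours in signal, all within the fold cutoff, and Atg2a and Ulk1 lay below it. The other 31 of 36 genes were inside it, where about 95% of all probe sets fall by construction. With 1 array per condition, a difference from that share was not tested. Of the 36 genes, 14 were under the 95th percentile of the negative controls on both arrays, Tfeb, Atg2a, Ulk1 and Atg14 among them, and 21 were over it on both. At a lower cutoff of 1.5-fold, 3 of the genes (Tfeb, Mcoln1 and Sqstm1) were higher and 4 (Atg2a, Ulk1, Atg14 and Map1lc3b) were lower. These are 8.33% and 11.1% of the 36 genes, near the 7.55% and 8.47% of all probe sets over the minimum that passed the same cutoff.

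**Figure D2:**
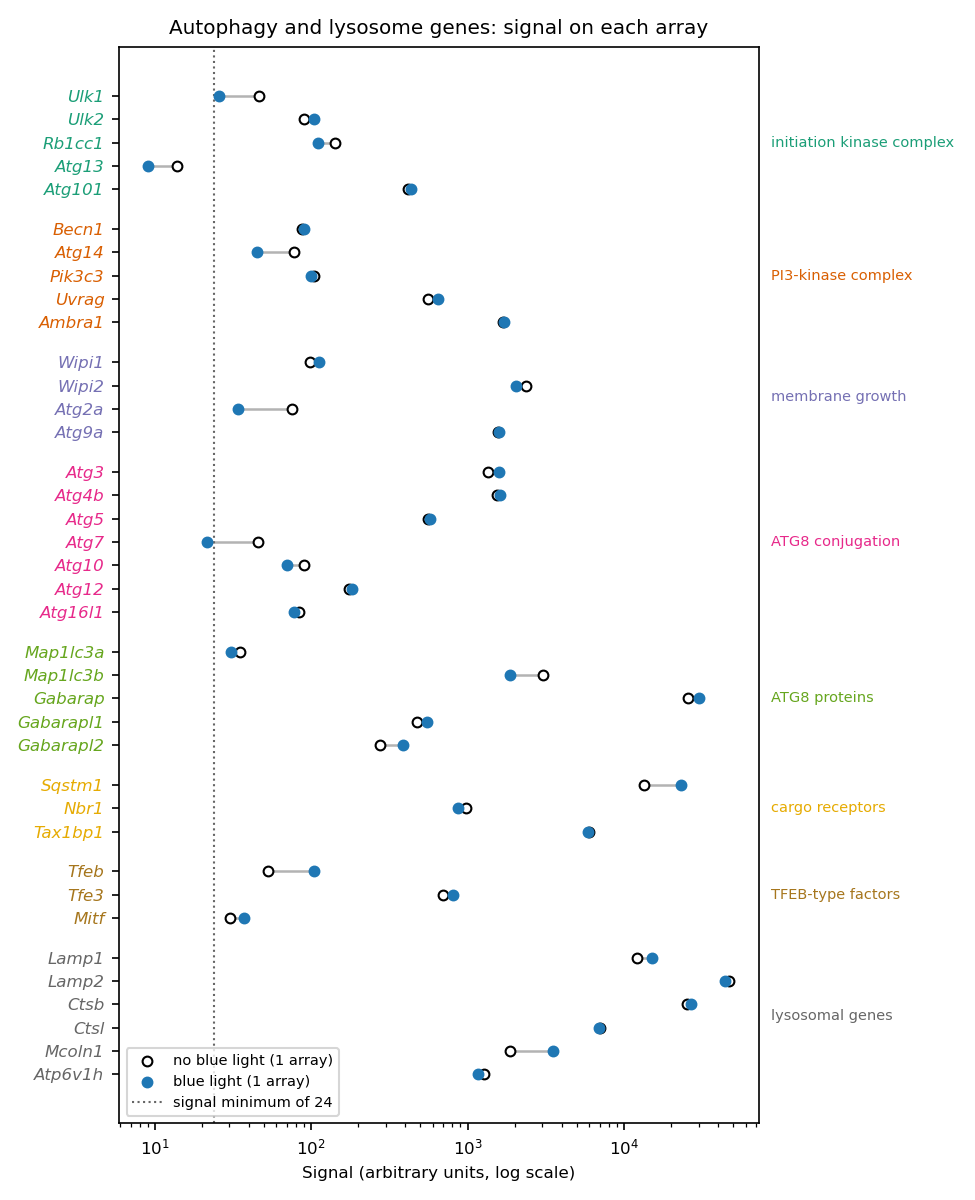
Signal of each of the 38 genes with a named probe set on the array without blue light (open circles) and with blue light (blue circles), on a log axis, grouped by role. The dotted line marks the signal minimum of 24; Atg13 lies under it on both arrays and Atg7 with blue light only, and the longest joining lines belong to Atg2a, Atg7, Tfeb and Mcoln1.

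In the initiating kinase complex the signals with blue light were lower for Ulk1 and Rb1cc1 and close to equal for Atg101. Ulk1, the kinase that starts autophagosome formation, went from 46.3 to 25.9, a log2 difference of -0.84 at percentile 2.4 of its neighbours in signal. The second value is at the level of the negative controls, and with 24 added to both signals the difference was -0.50. Ulk2, the related kinase, went from 89.4 to 104.4 (0.22), so the paired kinases did not share a direction. Rb1cc1, which encodes the scaffold FIP200, went from 142.9 to 111.2, a difference of -0.36 at percentile 22.2. Atg101, a partner of ATG13, had signals of 415.8 and 433.9, a difference of 0.06. Atg13, the adaptor that joins the kinase to the scaffold, was under the minimum on both arrays at 13.98 and 9.09, and no ratio is given.

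The genes of the lipid kinase complex differed by under 0.25 in size in 4 of 5 cases, with Atg14 as the exception. Pik3c3, which encodes the catalytic subunit VPS34, had signals of 103.8 and 100.1, a difference of -0.05. Becn1, which encodes its regulator Beclin 1, had signals of 87.6 and 90.3, a difference of 0.04 that was -0.001 under median scaling. Ambra1, a Beclin 1 partner, had signals of 1673 and 1721 and a difference of 0.04, which was -0.003 under median scaling. Atg14 and Uvrag encode subunits that take alternative places on Beclin 1, and their differences lay on opposite sides of 0. Atg14, whose product brings the complex to the site of autophagosome formation, went from 78.1 to 45.3, a difference of -0.79 at percentile 5.8. Uvrag, which serves the endosomal form of the complex, went from 558.6 to 651.7, a difference of 0.22 at percentile 76.2.

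Among the genes of membrane growth, Atg2a was the single gene past the fold cutoff. ATG2A is a bridge-like protein that moves lipids from the endoplasmic reticulum into the growing membrane. Its probe set read 75.6 in the unlit and 34.1 in the lit culture, a ratio of 0.451 and a log2 difference of -1.15 at percentile 2.4. Under median, quantile and loess scaling the difference ran from -1.20 to -1.18. These scalings do not test the call, as none moved a gene by more than 0.08. The call was lost with 24 added to both signals (-0.78), and the gene does not reach a minimum of 100. Its paralogue Atg2b had signals of 108.7 and 137.6, a difference of 0.34, on the other side of 0. Atg9a, which encodes the scramblase that works with ATG2A, had signals of 1563 and 1579.8, a difference of 0.02 that was -0.03 under median scaling. The readers of phosphatidylinositol 3-phosphate lay on opposite sides of 0. Wipi1 went from 97.9 to 112.7 (0.20) and Wipi2, which recruits ATG16L1, from 2372 to 2039 (-0.22).

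The conjugation genes, which join ATG8 proteins to lipid, differed by under 0.25 in size in 5 of the 6 cases over the minimum, with Atg10 as the exception. Atg3, the E2-like enzyme that carries ATG8 proteins, had signals of 1357 and 1582, a difference of 0.22 at percentile 77.0. Atg4b, the protease that trims ATG8 proteins for conjugation, had signals of 1545 and 1618, a difference of 0.07. ATG5 and ATG12 form a conjugate that, with ATG16L1, sets where ATG8 proteins are attached. Atg5 had signals of 560.9 and 573.7 (0.03, and -0.01 under median scaling), Atg12 of 173.6 and 181.6 (0.07), and Atg16l1 of 84.1 and 77.4 (-0.12). Atg10, the E2-like enzyme that carries ATG12, went from 90.6 to 69.9, a difference of -0.37 at percentile 20.8. Atg7, the E1-like enzyme that both conjugation routes need, went from 46.0 to 21.7, under the signal minimum with blue light. The second value is also under the median of the negative controls, so no ratio is given.

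The ATG8 family itself has an LC3 and a GABARAP branch. The 3 genes of the GABARAP branch each had a difference above 0, and both LC3 genes were below 0. The alternatives do not test these signs either, as adding 24 cannot change a sign and no scaling moved a gene by more than 0.08. Map1lc3b, whose product LC3B is the common marker of autophagosomes, went from 3029 to 1878, a ratio of 0.62 and a difference of -0.69 at percentile 4.4. Map1lc3a, which encodes LC3A, had signals of 34.9 and 30.7 near the negative controls, a difference of -0.18. Gabarap had signals of 25688 and 30205, a difference of 0.23 at percentile 81.0. Its relatives Gabarapl1 and Gabarapl2 went from 477.6 to 551.5 (0.21) and from 275.5 to 384.5 (0.48), the latter at percentile 88.8. All 5 were within the fold cutoff and inside the central 95% at like signal.

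Of the cargo receptors, which tie ubiquitin-tagged material to ATG8 proteins, Sqstm1 stood apart from both others measured. Sqstm1 encodes p62, which also binds KEAP1, the inhibitor of the oxidative stress factor NRF2. Its signal went from 13369 to 23134 between the arrays, a ratio of 1.73 and a log2 difference of 0.79 at percentile 99.2. The difference ran from 0.75 to 0.84 over the scalings tried. Nbr1, a related receptor, had signals of 974.97 and 872.5, a difference of -0.16, and Tax1bp1 had signals of 5957 and 5849.9, a difference of -0.03 that was 0.04 at the highest over the scalings. Keap1 had signals of 464.2 and 403.5, a difference of -0.20.

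**Figure D3:**
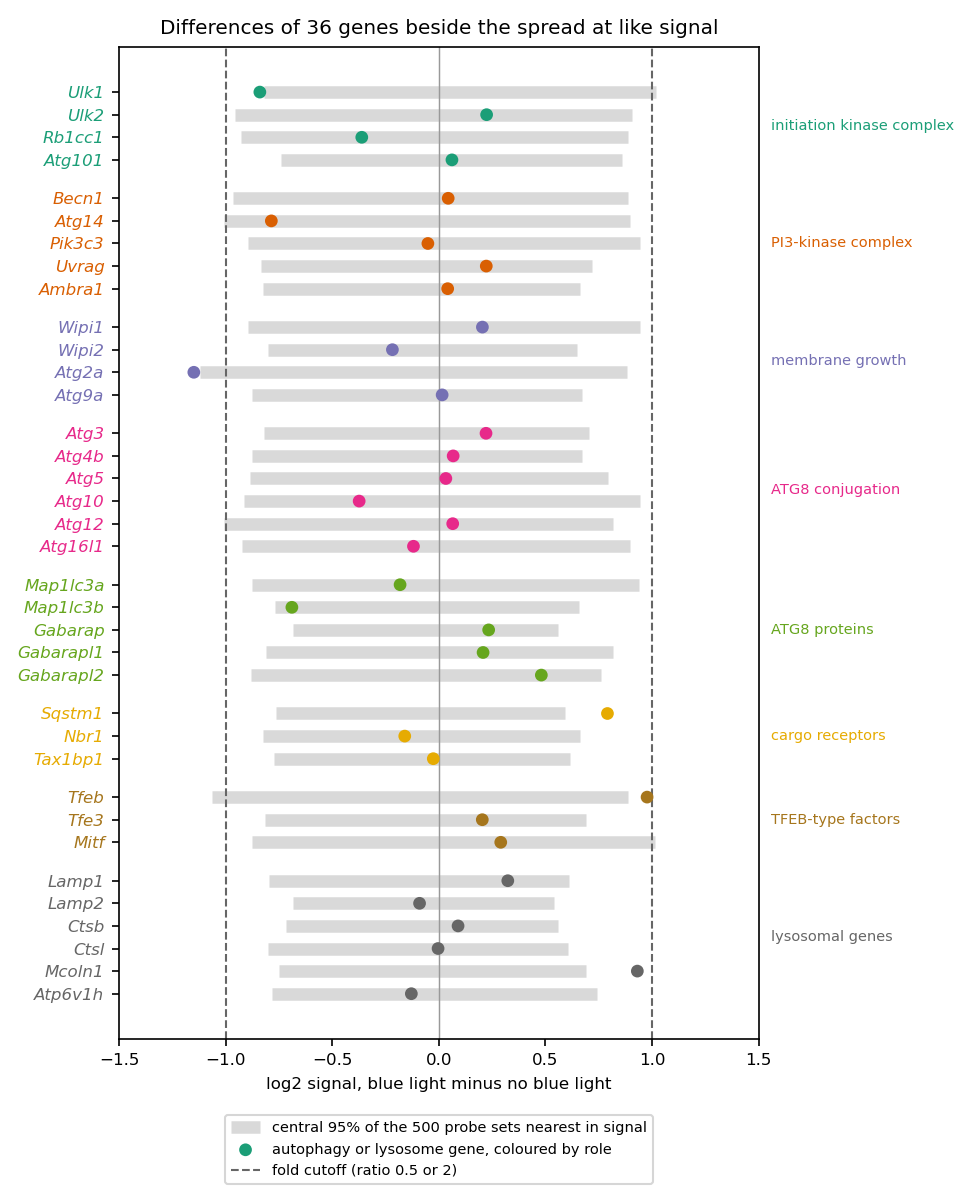
Difference in log2 signal, blue light minus no blue light, for the 36 genes over 24 on both arrays, coloured by role; grey bars span the central 95% of the 500 gene probe sets nearest in mean signal, and dashed lines mark ratios of 0.5 and 2. Tfeb, Mcoln1 and Sqstm1 lie to the right of their bars, Atg2a and Ulk1 to the left, and the other 31 genes inside.

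The genes of the TFEB type were all above 0 with blue light. The alternatives do not test this direction, because adding 24 to both signals cannot change a sign and no scaling moved a gene by more than 0.08. Tfeb went from 52.7 to 103.8, a ratio of 1.97 just inside the fold cutoff and a difference of 0.98 at percentile 98.8. With 24 added to both signals its difference was 0.74, and both signals were under the 95th percentile of the negative controls. Tfe3, the second of these factors, had signals of 699.5 and 805.6, a difference of 0.20 at percentile 74.4. Mitf, best known from melanocytes and osteoclasts, was near the minimum at 30.4 and 37.2, a difference of 0.29. Tfec, the fourth gene of the family, had signals of 447.2 and 563, a difference of 0.33. None of the 4 passed the fold cutoff.

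TFEB and its relatives bind the E-box TCACGTGA found before many lysosomal genes, and the promoters that hold it are shown for that reason. RefSeq promoter windows of GRCm38.p6, from 250 bases before to 50 after a start site, were matched by symbol for 32 of the 40 genes, with 39 windows. The E-box, which reads the same on both strands, was found in 3 of these windows (7.69%), against 320 of 32851 windows in all (0.974%) and 1.27% of the 19143 windows of genes named on the array. Lysosomal genes were put on the list partly as targets of these factors, so a higher share is no finding about the light. The 60-base stretches around the match, on the strand of the gene and with the E-box in capitals, lie at chr8:3500447-3500506 (plus strand) for Mcoln1, chr16:45158731-45158790 (plus) for Atg3 and chr7:142387893-142387952 (minus) for Ctsd.
Mcoln1: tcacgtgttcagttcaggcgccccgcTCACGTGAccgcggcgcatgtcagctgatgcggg
Atg3: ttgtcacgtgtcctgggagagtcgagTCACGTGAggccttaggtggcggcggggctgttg
Ctsd: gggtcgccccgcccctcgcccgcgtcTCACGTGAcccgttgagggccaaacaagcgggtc
The first base of the E-box lay 46 bases before the start site in Mcoln1, 72 in Atg3 and 99 in Ctsd. The differences of the 2 measured genes with it were 0.93 for Mcoln1 and 0.22 for Atg3, and the median of the 26 measured genes whose windows lack it was 0.05. The composite element of ATF4 and CHOP, TGATGNAA on either strand, was in 1 window, that of Ctsl (2.56%, against 3.97% of all). The antioxidant response element, TGACNNNGC on either strand, was in 6 windows (15.4%, against 12.4% of all). The 4 measured genes with it had a median difference of 0.10, beside 0.06 for the 24 measured genes whose windows lack it. These are matches of letters in short windows and not binding sites, and a gene without a match may hold one elsewhere.

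The lysosomal genes other than Mcoln1 differed by at most 0.32 in size. Mcoln1 encodes TRPML1, the lysosomal Ca2+ release channel. It went from a signal of 1856 to 3539, a ratio of 1.91 and a difference of 0.93 at percentile 99.4, and the difference ran from 0.89 to 0.98 over the scalings tried. Adding 24 to both signals left it at 0.92. The related channel genes Mcoln2 and Mcoln3 were under the minimum on both arrays, at 20.5 and 16.9 and at 10.8 and 10.6. The two-pore channel genes Tpcn1 and Tpcn2, which encode other lysosomal cation channels, had differences of -0.09 and -0.26, both on the other side of 0 from Mcoln1. Lamp1 and Lamp2 encode the main proteins of the lysosomal membrane. Lamp1 had signals of 12129 and 15178, a difference of 0.32 at percentile 86.0, and Lamp2 of 47246 and 44370.1, a difference of -0.09. The protease genes Ctsb and Ctsl, for cathepsins B and L, had signals of 25371 and 27006 (0.09) and of 6983 and 6965 (-0.004). The sign of Ctsl turned under quantile and loess scaling. Atp6v1h, a subunit of the proton pump that acidifies the lysosome, had signals of 1268 and 1159.5, a difference of -0.13.

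Other genes of the route were taken from 7 further lists, with 155 of 169 genes paired with a probe set and 141 over the minimum. Past the fold cutoff 2 were higher and 0 lower, against the 0.958% and 1.37% over all probe sets, and their median difference was 0.03. Both higher probe sets are named for genes of the remaining autophagy machinery, paralogues of genes near 0 among the 40. The probe set named Atg4a, for a protease like ATG4B, went from 37.8 to 83.7, a ratio of 2.21 and a difference of 1.15. Both signals were under the 95th percentile of the negative controls. The name comes from the annotation alone. The identifier of this probe set carries the code of an autosome and not of the X chromosome, so it may not lie at the Atg4a gene. Whether it reads that gene was not tested, and its value is not taken as that of the gene. Atg16l2, the relative of Atg16l1, went from 928.1 to 1864.5, a ratio of 2.01 and a difference of 1.01 that lay barely past the cutoff. With 24 added to both signals neither was called, and under median scaling Atg16l2 was not. The 14 measured genes of this list had a median of 0.30, with 10 above 0 (71.4%, against 48.5% of all probe sets over the minimum). The lowest of the list was Pik3r4, the VPS15 subunit of the lipid kinase complex, which went from 202.1 to 114.6 (-0.82).

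**Figure D4:**
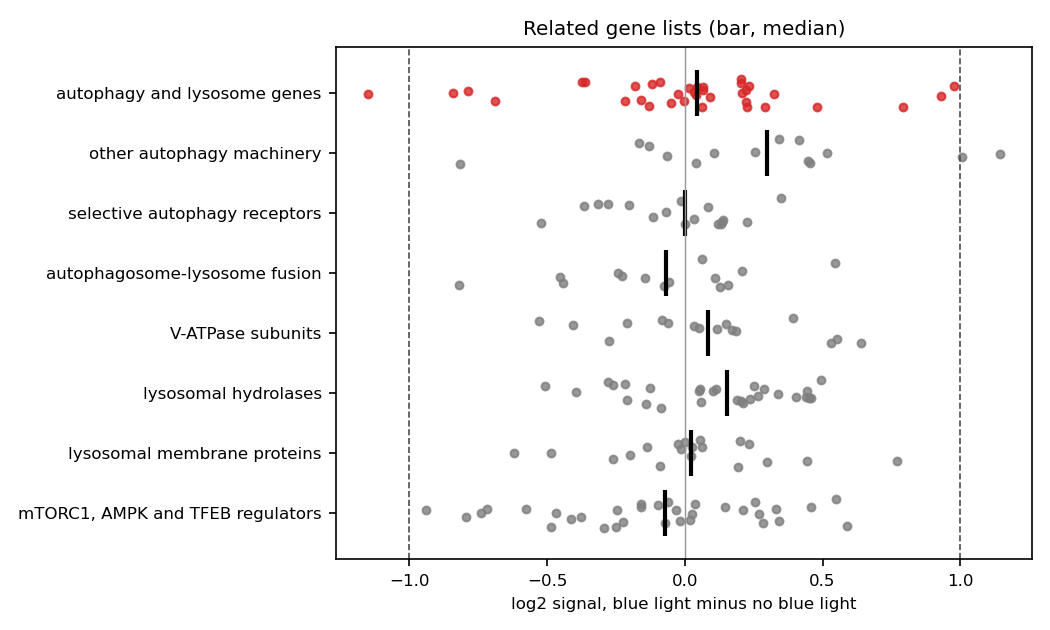
Difference in log2 signal, blue light minus no blue light, for the 36 autophagy and lysosome genes (red) and for the genes over 24 on both arrays in 7 related lists (grey); points are genes, bars are medians and dashed lines mark ratios of 0.5 and 2. Medians run from -0.07 to 0.30, and Atg2a, the probe set named Atg4a and Atg16l2 lie past a dashed line.

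The other 6 lists held no gene past the cutoff. Selective autophagy receptors, which pick out mitochondria, endoplasmic reticulum or ferritin, had a median of 0.00 over 17 genes, and Wdfy3 and Ccpg1 had differences of -0.52 and -0.37. Genes of fusion between autophagosome and lysosome had a median of -0.07 over 14 genes, from Tecpr1 at -0.82, with a signal of 26.2 at the level of the negative controls under blue light, to Ykt6 at 0.54. The V-ATPase subunits had a median of 0.08 over 16 genes, with Atp6v0e at 0.64 and Atp6v1a at 0.55. Lysosomal hydrolases had 19 of 28 genes above 0 (67.9%, against 48.5% of all probe sets over the minimum). Their median was 0.15, which is small beside a spread from -0.51 for Manba to 0.49 for Man2b1. Lysosomal membrane proteins had a median of 0.02 over 19 genes, with Slc36a1, an amino acid transporter that signals to mTORC1, at 0.77 and the ion channel gene Tmem175 at -0.62.

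Regulators of mTORC1, AMPK and TFEB had 20 of 33 genes below 0 and a median of -0.07. The share above 0 was 39.4%, against 48.5% of all probe sets over the minimum. Lamtor2, a subunit of the Ragulator scaffold that holds mTORC1 at the lysosome, went from 466.9 to 243.7, a ratio of 0.522 and a difference of -0.94 at percentile 0.6. The other Ragulator genes did not share this, with Lamtor1 and Lamtor3 at -0.16 and -0.10 and Lamtor4 and Lamtor5 at 0.28 and 0.21. Camkk2, the Ca2+-dependent kinase that activates AMPK, went from 335.6 to 193.5, a difference of -0.79 at percentile 4.0. Mtor and Foxo1, named after their values were seen, had signals of 501.3 and 300.3 (-0.74) and of 1299 and 790.5 (-0.72). FOXO1 is a transcription factor that also turns on autophagy genes. The AMPK catalytic subunit gene Prkaa1 had signals of 3953 and 4056, a difference of 0.04.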

How the data were processed

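RNA of F2 cells was hybridised to Clariom S arrays, 1 for each condition. Per the study's methods the authors used Filgen's Microarray Data Analysis Tool (version 3.2) to normalize, and they deposited log2 signals; the sources used here do not state which normalization was run or whether background was subtracted. That values are log2, with blue light over no blue light, was checked against the study's own list of ratios: all 237 rows matched by accession were equal within 0.01%. The 6640 control rows were left out. Gene symbols came from the platform annotation, which names 19572 of the 22206 gene probe sets, and RefSeq synonyms of GRCm38.p6 were searched for symbols not found. Signals are 2 to the power of the deposited value.

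The 40 genes, the related lists and the alternatives were chosen with earlier results of these data known. Every one of the 40 genes was named if measured, and of each related list the genes past the cutoff, otherwise the 2 over the minimum with the largest absolute difference. Other genes named beside them (Atg2b, Pik3r4, Keap1, Tfec, Mcoln2, Mcoln3, Tpcn1, Tpcn2, the Lamtor genes, Mtor, Foxo1, Ddit4, Zkscan3 and Prkaa1) were named after their values were seen. With 1 array per condition no test was made, and precision is limited by that number. Alternatives were median, quantile and loess scaling (span 0.3), other signal minimums, a fold of 1.5 and 24 added to both signals. The steps were tested on simulated data. Python 3.11.15, numpy 2.4.6, pandas 2.3.3 and statsmodels 0.14.6 were used.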

Additional observations from a re-analysis of the deposited data

How the results depend on the processing

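No paired analysis was possible because each condition has 1 array. Under median, quantile and loess scaling the counts of the 40 genes past the fold cutoff were as reported, and their median ran from -0.002 to 0.08. With no signal minimum, or with a signal over 24 on either array, 2 of them were lower (Atg2a and Atg7, the latter with a lit signal under the negative control median), beside 1.75% and 1.94% of all probe sets. With a signal over 100 on both arrays, or with 24 added to both signals, 0 were lower. At a fold of 1.5, 3 were higher and 4 were lower (8.33% and 11.1%), near the 7.55% and 8.47% of all probe sets. In the related lists, alternatives added after seeing the data gave 1 higher gene under median scaling and 1 with a signal over 100, 0 with 24 added, and at a fold of 1.5 5 higher and 7 lower (3.55% and 4.96% of 141, against the same 7.55% and 8.47%). With no minimum, or over 24 on either array, 1 was lower (Ctso, a cathepsin gene with 45.9 without and 16.6 with blue light). The sign of a difference changed for 4 of 36 genes under median scaling (Ambra1, Atg5, Atg9a and Becn1) and for 2 under quantile and loess scaling (Ctsl and Tax1bp1), all with differences near 0. Values within the range of the negative controls, such as those of Ulk1, Atg2a, Atg7, Tfeb, Map1lc3a and Mitf, also limit the ratios of those genes.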
